A study of Mus musculus with 9 samples.

Results

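The class IIa histone deacetylases (Hdac4, Hdac5, Hdac7 and Hdac9), the MEF2 transcription factors they bind (Mef2a, Mef2c and Mef2d) and Dach2 were followed in mouse gastrocnemius after a hindlimb had been held still. These 8 genes were chosen by name from 55487 genes listed in each table, and all 8 lay above the filter on low values, together with 16140 genes in all. RNA was sequenced from 9 samples of C57BL/6 mice, which the series text gives as males 8 weeks old, in 3 groups of 3. Dis was muscle from a leg wrapped for 7 days in a thermoplastic bandage, Con was the free leg of mice from the same immobilized group, and NC was muscle of naive mice with no bandage. No genetic change or drug treatment is described for any group, apart from isoflurane anesthesia. The methods give it to fit and to remove the bandage, and to mice at the end before tissue was taken. Con came from mice whose other leg was immobilized, so it shared with Dis anything that reached the whole animal. No label told whether any Con and Dis samples came from one mouse, and the main tests treated them as unpaired. The labels did not say whether the samples of a group were separate mice. The paper describes the profiled muscles as taken from 3 mice but links no mouse to a sample. P-values measure the spread between samples. The sources differed on the bandaged side (right in the series text, left in the methods), on the muscle (gastrocnemius in the labels, tibialis anterior in part of the methods) and on Con, which the series text calls an immobilized leg and the sample labels a contralateral one. On age, the methods have mice bought at 8 weeks and housed for further weeks before the bandage, so older than the series text gives. The sample labels were followed.

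Class IIa histone deacetylases have little catalytic activity of their own on acetylated histones. They are carried to DNA by MEF2 factors and hold MEF2 target genes down through corepressors and HDAC3. Calcium-dependent and other kinases phosphorylate them, 14-3-3 proteins then bind them, and they leave the nucleus. In denervated mouse muscle HDAC4 is known to build up and to repress Dach2, a repressor of the myogenin gene Myog. Myogenin then raises acetylcholine receptor subunits and the ubiquitin ligases Fbxo32 and Trim63. The comparisons here ask which of these transcripts differed in muscle that was immobilized with its nerve in place.

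All 8 genes are protein coding, and their positions in the tables equal those of the GENCODE M21 annotation of GRCm38. Hdac4 lies on chromosome 1 (91928779 to 92195699), Hdac5 on 11 (102194432 to 102230166), Hdac7 on 15 (97792664 to 97844502) and Hdac9 on 12 (34047580 to 34917095), all on the minus strand. Mef2a lies on chromosome 7 (67231163 to 67372858, minus strand), Mef2c on 13 (83504034 to 83667080, plus), Mef2d on 3 (88142372 to 88172086, plus) and Dach2 on X (113297510 to 113836386, plus).

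Sequence before the transcription start sites, or across the start for Mef2a, is shown for 5 of the genes. It is given because MEF2 factors bind an A/T-rich site and may act on genes of their own pathway. RefSeq windows of 300 bases on GRCm38.p6 were available for all 8 genes (15 windows, since some genes have several starts). The motifs were chosen after the windows had been read. Capitals mark the core of the MEF2 site, searched as CTA, any 4 bases and TAG, a form that reads the same on both strands. It was found in 3 of the 15 windows and in 3.69% of all 32851 windows. The form with those 4 bases all A or all T was found in 2 of the 15 (Hdac5 and Mef2a) and in 36 of all windows (0.110%). Bases run 5′ to 3′ on the strand of the gene.
Hdac5, chr11:102230173-102230237, minus strand: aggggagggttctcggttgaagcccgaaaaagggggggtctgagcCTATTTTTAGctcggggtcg
Hdac9, second start, chr12:34528890-34528966, minus strand: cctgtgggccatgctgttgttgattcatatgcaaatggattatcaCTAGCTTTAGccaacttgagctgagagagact
Mef2a, chr7:67372841-67372870, minus strand: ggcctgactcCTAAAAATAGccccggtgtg
The matches began 20 bases before the start for Hdac5, 32 for Hdac9 and 2 for Mef2a, so most of the Mef2a match lay past the start. These are matches of letters, and binding was not measured.

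The windows of Hdac4 and Dach2, the genes with the largest rise and the lowest level, held no match to the MEF2 core. They are shown with capitals at CCAAT, a common promoter box, or at its reverse complement ATTGG, found in 6 of the 15 windows and in 37.4% of all windows.
Hdac4, chr1:92180342-92180491, minus strand: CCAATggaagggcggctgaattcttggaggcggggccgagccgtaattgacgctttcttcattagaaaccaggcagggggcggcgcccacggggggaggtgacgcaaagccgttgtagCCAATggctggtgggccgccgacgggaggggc
Dach2, second start, chrX:113298106-113298255, plus strand: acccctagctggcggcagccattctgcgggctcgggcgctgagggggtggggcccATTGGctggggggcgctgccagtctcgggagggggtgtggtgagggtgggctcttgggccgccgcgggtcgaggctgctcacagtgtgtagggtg

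Values are in TPM, transcript levels divided by transcript length and scaled to one total in each sample, so levels can be set side by side between genes. TPM keeps no read totals, which leaves the sequencing depth unknown and allows no counting interval. All 8 muscle fibre markers were present in every sample and summed to between 136005 and 159840 TPM in the 9 samples, so each sample held muscle fibre RNA. These markers were not chosen to tell gastrocnemius from tibialis anterior. Dis 2 stood apart from the other samples. Its 8 macrophage markers, each above 0 in every sample, summed to 426 TPM against 51.0 to 130 TPM in the other 8 samples, and its 6 neutrophil markers to 28.7 TPM against 0.128 to 7.02 TPM. The slow fibre markers summed to 1187 to 3780 TPM in Dis and 3125 to 9707 TPM in the 6 controls, with the lowest control in Con 1. Where leaving out Dis 2 or Con 1 lost a call against Con, this is given for the 8 genes and the named list genes. Sizes without these samples are given for some genes only. Whole muscle was read, so fewer cells of a type and less RNA per cell cannot be told apart.

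The genes spanned a wide range of levels. In the 6 control samples Mef2c was the most abundant (154 to 185 TPM), then Mef2d (108 to 130.5 TPM), and Mef2a (41.1 to 52.4 TPM) and Hdac5 (37.3 to 46.2 TPM) followed with overlapping ranges. Hdac4 (8.91 to 12.1 TPM) and Hdac7 (8.36 to 12.7 TPM) overlapped too. Hdac9 was lower (3.06 to 5.06 TPM) and Dach2 lowest (0.426 to 0.654 TPM). In Dis this order kept its ends, but Hdac4 no longer overlapped Hdac7. The ranges of Mef2a and Hdac5 did not overlap in Dis either.

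Hdac4, the class IIa deacetylase most studied in denervated muscle, rose in the immobilized leg. Its level was 25.3, 30.2 and 23.2 TPM in the Dis samples, 11.2, 12.1 and 9.05 TPM in Con, and 8.91, 10.4 and 9.96 TPM in NC. Each Dis sample lay above each control sample, and Con and NC overlapped. Mean TPM was 2.43 times that of Con and 2.69 times that of NC. In limma on log2(TPM + 0.5) the log2 fold change was 1.25 (SE 0.14, adjusted p = 0.00275) against Con and 1.38 (SE 0.14, adjusted p = 0.00246) against NC. The call held without Dis 2, the sample with the highest Hdac4, at 1.14 against Con (adjusted p = 0.0040), and under each other setting tried. The transcript models of Hdac4 share 3536 exon bases with an opposite-strand noncoding gene. The methods of the paper name a strand-specific library kit, but whether reads were counted by strand is not given in the sources used here.

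**Figure D1:**
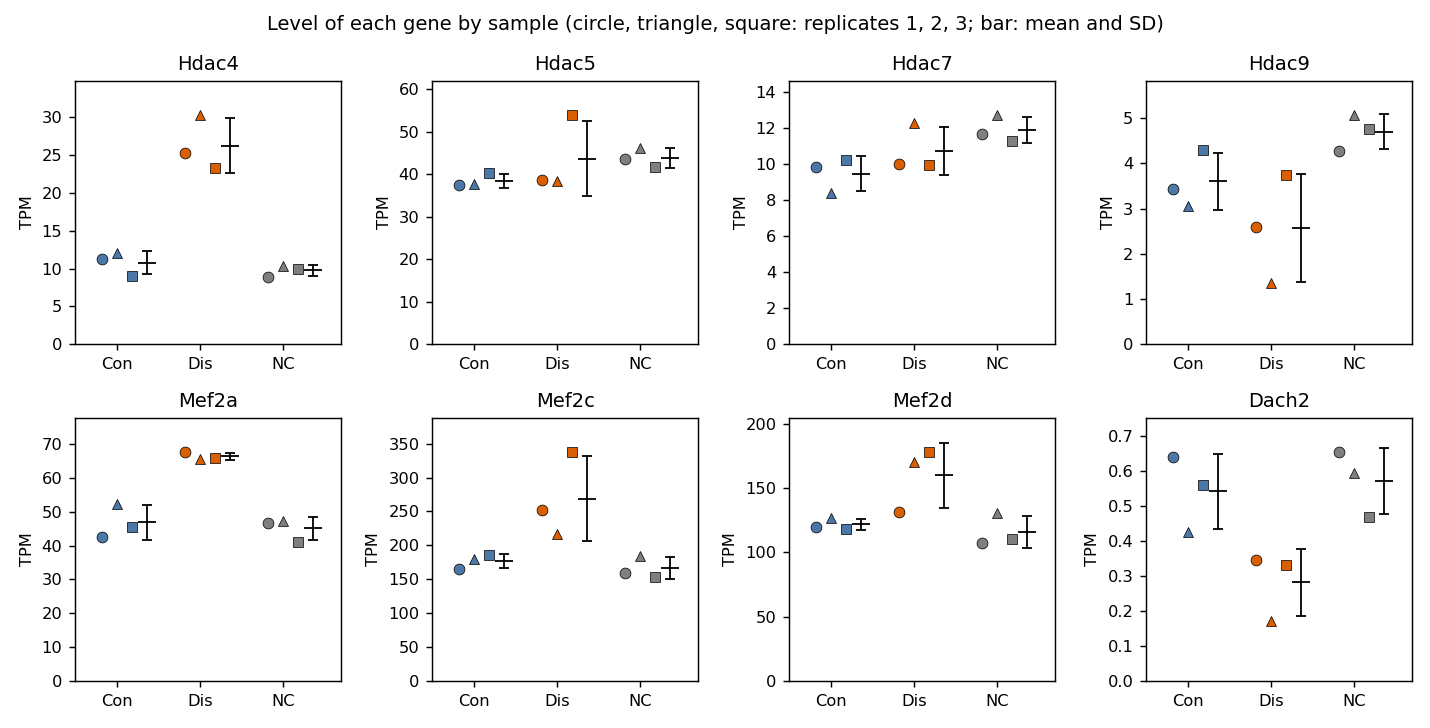
Level of each of the 8 genes in TPM (y axis, from 0) in the 9 samples by group (x axis), with circles, triangles and squares for replicates 1, 2 and 3 and a bar for the mean and SD of 3 samples. Hdac4 lies between 23.2 and 30.2 TPM in Dis and at 12.1 TPM or below in the controls, while Dach2 lies at 0.345 TPM or below in Dis and at 0.426 TPM or above in the controls.

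The other class IIa genes did not follow Hdac4. Hdac5, the most abundant of the 4, stood at 38.7, 38.5 and 53.8 TPM in Dis, 37.3, 37.7 and 40.2 TPM in Con, and 43.7, 46.2 and 41.6 TPM in NC. Only Dis 3 was above the controls. The log2 fold change against Con was 0.16 (95% interval -0.13 to 0.45), and against NC it was -0.02 (-0.31 to 0.27).

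Hdac7, which acts in endothelial cells and thymocytes and is also found in muscle, stood at 9.97, 12.2 and 9.96 TPM in Dis, within the range of the controls. Con held 9.82, 8.36 and 10.2 TPM, and NC held 11.7, 12.7 and 11.3 TPM, so the 2 control groups did not overlap for this gene. The log2 fold change of Dis was 0.17 against Con (-0.10 to 0.44) and -0.15 against NC (-0.42 to 0.13). The 8 endothelial markers summed to 151 to 183 TPM in Dis and 137 to 184 TPM in the controls, and their part in the Hdac7 values was not tested.

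Hdac9, which also makes a splice product without the deacetylase domain, was low and uneven in the immobilized leg. It stood at 2.59, 1.36 and 3.74 TPM in Dis, 3.43, 3.06 and 4.30 TPM in Con, and 4.28, 5.06 and 4.75 TPM in NC. Dis lay below each NC sample and overlapped Con. The log2 fold change was -0.49 against Con (SE 0.27, limma adjusted p = 0.231) and -0.84 against NC (SE 0.27, adjusted p = 0.0594), and neither passed. Without Dis 2 these values were -0.17 and -0.52, and without Dis 3 they were -0.76 and -1.12 (adjusted p = 0.0198 for the last).

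A share within a sample does not depend on how samples are scaled against each other, so each class IIa gene was also taken as a percent of the summed TPM of the 4. These shares use the same samples as the fold changes and are not independent of them. Hdac4 made up 33.0, 36.7 and 25.6% of the sum in Dis, against 18.2, 19.7 and 14.2% in Con, and 13.0, 13.97 and 14.7% for the NC samples. The sum itself was 76.5 to 90.7 TPM in Dis, 61.2 to 63.8 TPM in Con and 67.6 to 74.3 TPM in NC. The Hdac4 share was 31.8 ± 5.68% (SD, n = 3) in Dis and 15.6 ± 2.68% (SD, n = 6) in the controls together. The exact permutation test, with 84 possible choices of 3 samples from 9, gave p = 0.0238, two-sided, the smallest this test can give. Adjusted over the 8 ratios computed, it was 0.0476.

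The shares of the other class IIa genes went the other way. Hdac5 fell by 9.90 points, from 62.1 ± 1.18% in the 6 controls to 52.2 ± 6.45% in Dis, and Hdac9 fell by 3.18 points, from 6.23 ± 0.803% to 3.05 ± 1.27%. Both had the smallest p of the exact permutation test (0.0238, adjusted 0.0476) with Dis below all 6 controls. Hdac7 made up 13.0 ± 1.95% in Dis and 16.0 ± 1.28% in the controls, a difference of -3.09 points that did not pass (exact permutation p = 0.0476, adjusted 0.0762). The 4 shares sum to 100% in each sample, so a rise of one must lower others. With any one sample left out none of these tests passed after adjustment (exact permutation adjusted p 0.0571 or above). Without a Dis sample, the exact permutation test of 2 against 6 cannot go below p = 0.0714, so it could not pass whatever the values. Without any one control, the exact permutation p was 0.0357 for the Hdac4, Hdac5 and Hdac9 shares (adjusted 0.0571 to 0.0714). The Hdac4 difference stayed between 13.7 and 19.3 points with any one sample left out.

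**Figure D2:**
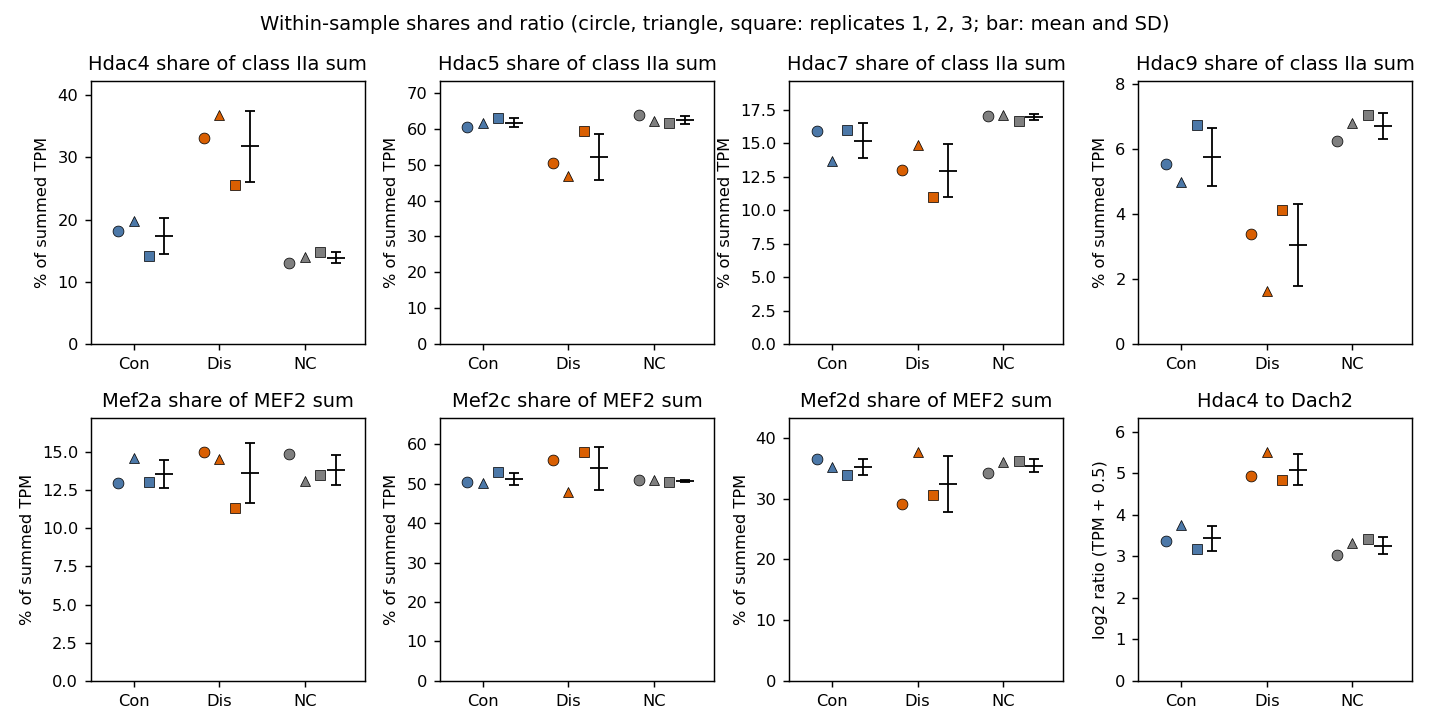
Share of each class IIa gene in the summed TPM of the 4 and of each MEF2 gene in the summed TPM of the 3 (y axis, percent), and the log2 ratio of Hdac4 to Dach2 on log2(TPM + 0.5), for the 9 samples by group (x axis). Points are samples and bars the mean and SD of 3. The Hdac4 share lies between 25.6 and 36.7% in Dis and between 13.0 and 19.7% in the 6 controls, and the MEF2 shares overlap.

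The MEF2 genes were all higher in Dis than in any control sample. Mef2a, a MEF2 factor of mature muscle, stood at 67.6, 65.7 and 65.9 TPM in Dis, 42.5, 52.4 and 45.6 TPM in Con, and 46.8, 47.4 and 41.1 TPM in NC. The Dis samples were close to one another and well clear of the controls. Its log2 fold change was 0.51 against Con (SE 0.10, limma adjusted p = 0.0125) and 0.56 against NC (SE 0.10, adjusted p = 0.00839). Without Con 1 it was 0.44 against Con and no longer passed (adjusted p = 0.0566).

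Mef2c, needed for sarcomere integrity in mouse skeletal muscle, stood at 253, 216 and 338 TPM in Dis, 166, 180.2 and 185 TPM in Con, and 159.8, 184 and 154 TPM in NC. Dis samples were more spread than the controls, with Dis 3 the highest. The log2 fold change was 0.58 against Con (SE 0.15, limma adjusted p = 0.0324) and 0.67 against NC (SE 0.15, adjusted p = 0.0192). The call against Con was lost without any one of the Con samples (adjusted p 0.107, 0.0792 and 0.0697) or without NC 1 or NC 3 (0.0546 and 0.0503). That against NC was lost without NC 1 (0.0730) or NC 3 (0.0704).

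Mef2d, whose muscle splice form escapes repression by class IIa deacetylases, stood at 131, 170.5 and 178 TPM in Dis, 120.2, 127 and 118 TPM in Con, and 108, 130.5 and 110.4 TPM in NC. Dis 1 lay just above the highest control. The log2 fold change was 0.38 against Con (SE 0.13, limma adjusted p = 0.0679), which did not pass, and 0.45 against NC (SE 0.13, adjusted p = 0.0396), which did. The call against NC was lost without any one sample other than Dis 1 or NC 2, with adjusted p up to 0.134. Without Dis 1 the log2 fold change against Con rose to 0.52 and passed (adjusted p = 0.0159).

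The share of each MEF2 gene in their sum overlapped between Dis and the controls. Together they summed to 451 to 582 TPM in Dis, 328 to 359 TPM in Con and 305 to 362 TPM in NC. Mef2c made up 53.9 ± 5.42% of the sum in Dis and 51.0 ± 1.05% in the 6 controls, Mef2d 32.5 ± 4.59% and 35.4 ± 1.09%, and Mef2a 13.6 ± 1.99% and 13.7 ± 0.850%. None of the 3 shares differed past the threshold by the exact permutation test (p = 0.214, 0.190 and 0.857). Without Dis 2 the Mef2c share differed by 6.04 points and the Mef2d share by -5.53 points, both clear of the controls. The exact permutation p was 0.0714 for each (adjusted 0.0816), the smallest possible with 2 samples against 6. Mef2b, the remaining MEF2 gene, was under the filter, at 0.0208 to 0.477 TPM.

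Dach2, a repressor of Myog and a target of HDAC4 in denervated mouse muscle, was low in all samples and lowest in the immobilized leg. It stood at 0.345, 0.172 and 0.330 TPM in Dis, 0.640, 0.426 and 0.559 TPM in Con, and 0.654, 0.594 and 0.469 TPM in NC. Each Dis sample was below each control, the lowest being Dis 2. The mean of Con was 1.92 times that of Dis, and that of NC 2.03 times. On log2(TPM + 0.5), which understates the change of a gene this low, the log2 fold change was -0.42 against Con (SE 0.17) and -0.46 against NC (SE 0.17). Neither passed in limma (adjusted p = 0.125 and 0.0967). Against Con and NC together, a comparison added after the data had been seen, it was -0.44 (adjusted p = 0.0599).

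The level of Hdac4 relative to that of Dach2 was higher in each Dis sample than in each control sample. Hdac4 TPM was 73.4, 176 and 70.3 times Dach2 TPM in Dis, 17.5, 28.3 and 16.2 times in Con, and 13.6, 17.5 and 21.2 times in NC. The log2 ratio, with 0.5 added to each TPM, was 5.09 ± 0.37 (SD, n = 3) in Dis and 3.35 ± 0.25 (SD, n = 6) in the controls, a difference of 1.75 (exact permutation p = 0.0238, adjusted 0.0476). Without Dis 2, which had both the highest Hdac4 and the lowest Dach2, the difference was 1.54. The exact permutation adjusted p was then 0.0816, but with 2 samples against 6 this test cannot go below p = 0.0714. With any one sample left out the adjusted p was 0.0571 or above. The larger part of the ratio difference came from Hdac4. Against Con the log2 ratio differed by 1.66, where the log2 fold change was 1.25 for Hdac4 and -0.42 for Dach2. Dach2 by itself passed in none of the limma comparisons above, so the ratio is not separate evidence of a fall in Dach2.

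Counted over the 8 genes, 5 did not overlap between Dis and the 6 controls, with Hdac4, Mef2a, Mef2c and Mef2d above and Dach2 below. Of all 16140 genes, 26.5% did not overlap in this way (22.5% above and 3.93% below). Against Con, 3 of the 8 passed and all were higher, where 17.2% of all genes passed, 14.1% higher and 3.08% lower. Against NC, 4 of the 8 passed and all were higher, where 16.6% of all genes passed, 13.6% higher and 2.99% lower. The comparisons share the Dis samples, so they are not separate evidence. Against Con and NC together, 4 of the 8 passed, all higher (24.4% of all genes, 20.3% higher and 4.09% lower).

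Scaling decided the MEF2 calls and left that of Hdac4 in place. Over the tested genes as a whole the median log2 fold change was 0.20 for Dis against Con and 0.21 against NC on deposited TPM, and 0.01 for both after median-ratio scaling. Relative to that shift, Mef2a, Mef2c and Mef2d stood at 0.28, 0.35 and 0.15 against Con after scaling (limma adjusted p = 0.176, 0.268 and 0.482), and none passed. Hdac4 stood at 1.02 (adjusted p = 0.00441) against Con and 1.14 (adjusted p = 0.0032) against NC. Hdac5 and Hdac7 turned to -0.06 and -0.05 against Con. Against NC, Hdac7 at -0.38 (adjusted p = 0.0467) and Hdac9 at -1.04 (adjusted p = 0.0489) then passed as lower. That left 1 of 8 past the threshold against Con (7.34% of all genes, 2.67% higher and 4.67% lower) and 3 of 8 against NC (9.03%, 3.51% higher and 5.52% lower). Against Con and NC together 2 of 8 then passed, Hdac4 at 1.08 and Hdac9 at -0.86 (12.2% of all genes, 4.76% higher and 7.45% lower).

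**Figure D3:**
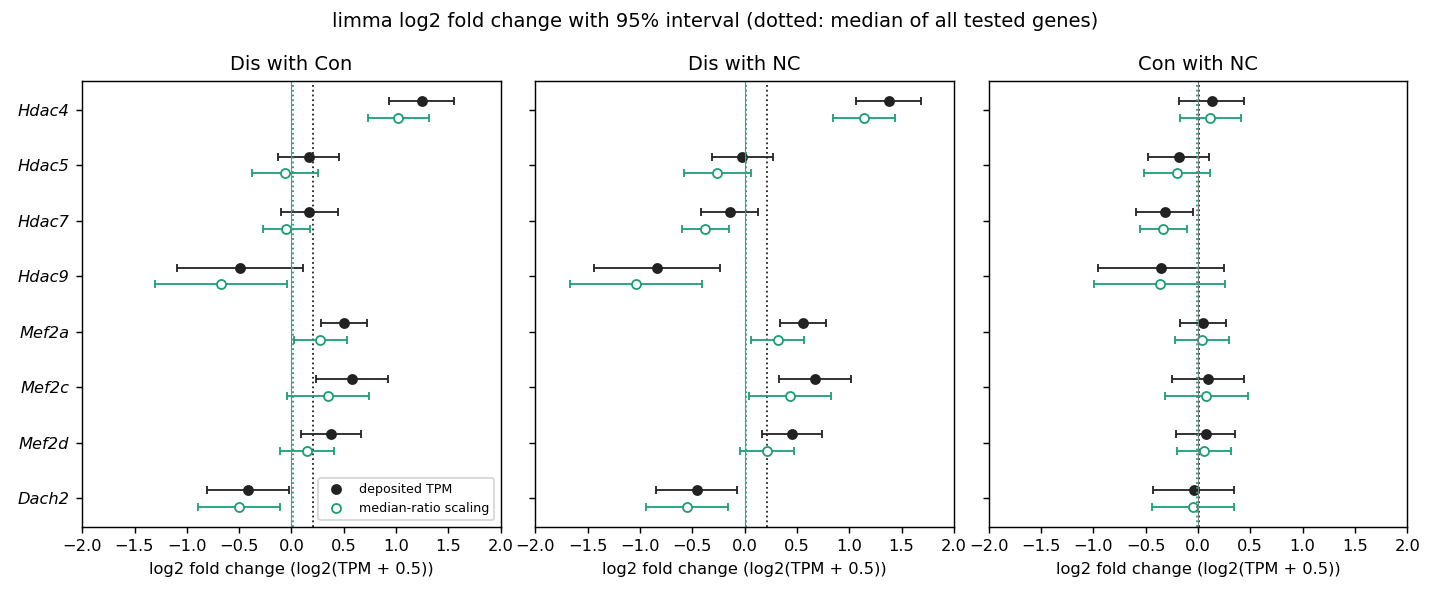
Log2 fold change of each gene in limma (x axis, log2(TPM + 0.5)) with its 95% interval for Dis with Con, Dis with NC and Con with NC, on deposited TPM (filled) and after median-ratio scaling (open), with dotted lines at the median of all tested genes. The Hdac4 interval against Con runs from 0.94 to 1.56 on deposited TPM and from 0.73 to 1.32 after scaling, and the MEF2 values move toward 0 after scaling.

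The free leg and naive muscle were compared to see whether the genes differed between the controls. None of the 8 passed in limma (1 of 16140 genes did, 0.0062%), and 1008 genes had an unadjusted p below 0.05. Hdac7 was the only one of the 8 among those, at -0.32 in Con (95% interval -0.59 to -0.04, limma adjusted p = 0.719). Hdac4 differed by 0.13 (-0.18 to 0.44), Mef2a by 0.05 (-0.17 to 0.27), Hdac9 by -0.35 (-0.95 to 0.25) and Dach2 by -0.04 (-0.43 to 0.35).

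The partners and targets of these proteins were read from lists chosen with earlier results known, each beside the median of all tested genes, 0.20 for Dis with Con. As background for the counts, 14.1% of all genes passed as higher against Con and 3.08% as lower. After median-ratio scaling these shares were 2.67% and 4.67%. Among the other histone deacetylases, 5 of 7 rose and 0 fell, with a list median of 0.52. Hdac3, the catalytic partner of class IIa proteins in corepressor complexes, rose from 39.7, 42.8 and 45.7 TPM in Con to 63.2, 57.7 and 62.3 TPM in Dis (log2 fold change 0.51, limma adjusted p = 0.0112). Hdac10, which deacetylates polyamines, rose by 0.54 (adjusted p = 0.0166), Hdac2, a class I enzyme, by 0.34 (0.0197), and Hdac6, the tubulin deacetylase, by 0.82 (0.0222). After median-ratio scaling Hdac6 was the 1 gene that passed, and without Con 1 the count was 0. None of the 7 corepressors and adaptors passed (median 0.27), although 2 passed against NC (Ankra2, an adaptor, and Ncor1) and 2 against Con without Dis 2 (Cbx5, a heterochromatin protein, and Ncor1, a corepressor that holds HDAC3).

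Of the kinases that phosphorylate class IIa proteins, 4 of 14 tested rose and 0 fell, with a median of 0.17. Sik1, a salt-inducible kinase, changed most, from 14.3, 17.9 and 19.7 TPM in Con to 29.6, 40.3 and 39.3 TPM in Dis (1.05, limma adjusted p = 0.0102), and it was the 1 kinase that passed after median-ratio scaling and without Con 1. Camk2b, a calcium and calmodulin dependent kinase of muscle, rose by 0.64 (adjusted p = 0.0209), its relative Camk2g by 0.37 (0.0236) and Sik3 by 0.46 (0.037). Sik3 did not pass without Dis 2. Among the 14-3-3 genes 1 of 7 passed, Ywhae (0.37, adjusted p = 0.0478), with a median of 0.22. Ywhae did not pass after median-ratio scaling, without Dis 2 or without Con 1.

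The list of Dach1, Eya genes and sine oculis homeobox genes, which act together on muscle regulators, had 2 of 8 higher, 0 lower and a median of 0.15. Eya4 rose by 0.56 (limma adjusted p = 0.037) and Eya3 by 0.45 (0.0371), both cofactors of the homeobox proteins. In this list 0 passed after median-ratio scaling, 0 without Con 1 and 1 without Dis 2 (Eya4). Dach1, the relative of Dach2, stood at 2.32, 1.07 and 2.21 TPM in Dis, against 1.56, 1.21 and 1.58 TPM in Con, and 2.23, 2.53 and 1.83 TPM for the NC samples. The groups overlapped for Dach1 (0.24 against Con, adjusted p = 0.508).

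Genes downstream of HDAC4 and myogenin in denervated muscle had the highest median of the partner and target lists, 0.92, and 4 of 11 tested rose and 0 fell. Chrne, the adult subunit of the acetylcholine receptor, rose from 17.8, 15.3 and 17.2 TPM in Con to 30.8, 28.8 and 37.4 TPM in Dis (0.92, limma adjusted p = 0.00406). Chrnb1, another subunit, rose by 1.13 (adjusted p = 0.00651), and Fbxo32, the ligase atrogin-1, by 1.76 (0.0184). These 3 passed after median-ratio scaling as well, and Chrnb1 and Chrne passed without Con 1. Chrna1, the receptor's alpha subunit, stood at 23.3, 85.0 and 16.0 TPM in Dis against 6.65, 8.83 and 8.85 TPM in Con (1.92, adjusted p = 0.0294). Not all subunits rose. Chrnd did not pass against Con and overlapped it (2.05 to 2.47 TPM in Dis, 1.43 to 2.43 TPM in Con). Chrng, under the filter and not tested, stood at 0 to 0.106 TPM in Dis, 0.177 to 0.424 TPM in Con and 0.0467 to 0.135 TPM in NC. Trim63, the other ligase named above, stood at 492, 1623 and 406 TPM in Dis against 191, 382 and 199 TPM in Con. It did not pass against Con. Against NC 8 of the 11 passed, all higher, where 13.6% of all genes passed as higher.

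Myog did not pass against either control group. It stood at 11.5, 24.8 and 8.97 TPM in Dis, 5.96, 8.40 and 11.5 TPM in Con, and 6.04, 6.53 and 6.35 TPM in NC. Dis overlapped Con through Con 3 and lay above NC. The log2 fold change was 0.69 against Con (limma adjusted p = 0.185) and 1.06 against NC (adjusted p = 0.0591). Dis 2, the sample with the high macrophage sum and the highest Hdac4, also had the highest Myog and Chrna1. The satellite cell markers, genes of the muscle's stem cells, summed to 48.1 to 83.6 TPM in Dis, highest in Dis 2, and to 36.4 to 45.9 TPM in the controls. Of these markers only Cdh15 lay above all controls, at 21.0 to 35.6 TPM in Dis against 11.7 to 14.7 TPM. The others overlapped, among them Pax7 (1.19 to 1.42 TPM in Dis, 0.966 to 1.82 TPM in the controls). The part of satellite cells in the Myog and Chrna1 values was not tested.

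**Figure D4:**
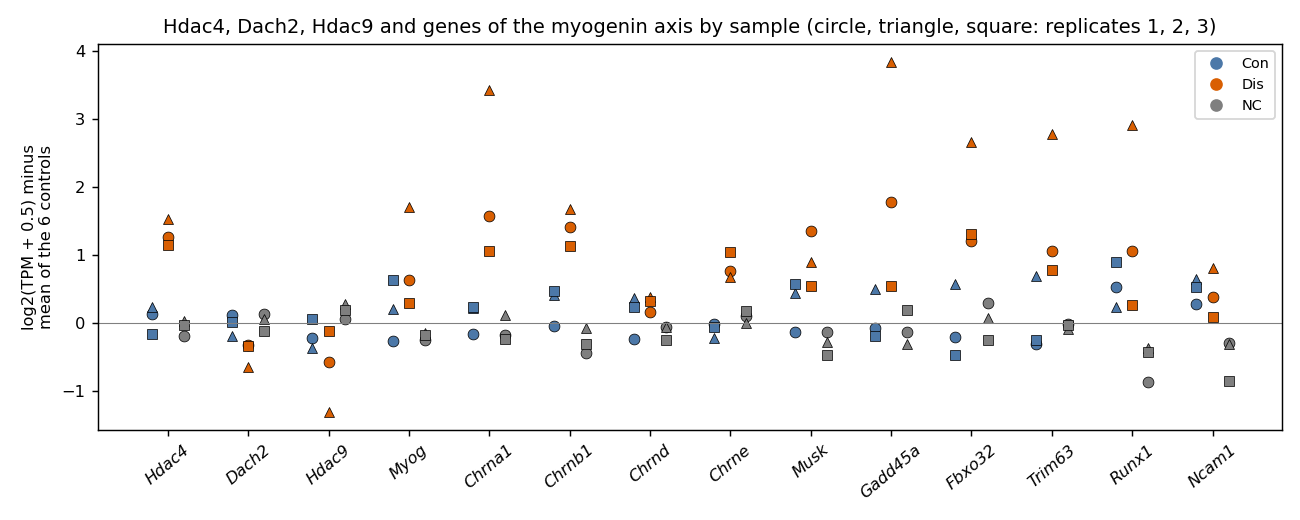
Log2(TPM + 0.5) minus the mean of the 6 control samples (y axis) for Hdac4, Dach2, Hdac9 and the 11 tested genes of the myogenin list (x axis), with colours for groups and shapes for replicates. Hdac4 lies above and Dach2 below 0 in all 3 Dis samples, and Dis 2 (orange triangle) is the highest for Myog and Chrna1.

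Coregulators of MEF2 showed 4 of 11 tested genes higher and 1 lower, with a median of 0.30. Ppp3ca, the calcineurin subunit that activates MEF2, rose from 106, 130.4 and 129 TPM in Con to 206, 174 and 184 TPM in Dis (0.63, limma adjusted p = 0.00741). The acetyltransferase Ep300 rose by 0.48 (adjusted p = 0.023) and its relative Crebbp by 0.53 (0.0402). Vgll2, a muscle cofactor that binds MEF2 and TEAD factors, fell from 102, 108 and 104 TPM in Con to 38.0, 49.3 and 62.0 TPM in Dis (-1.10, adjusted p = 0.0217), but NC reached down to 49.7 TPM and the fold against NC was -0.50 (adjusted p = 0.193). Vgll2 was the 1 gene of the list that passed after median-ratio scaling, and Ppp3ca the 1 without Con 1.

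Known MEF2 targets of muscle went both ways, with 3 of 16 higher, 2 lower and a median of 0.09. Jun, an early response factor, rose from 43.4, 41.0 and 42.7 TPM in Con to 98.5, 152 and 99.99 TPM in Dis (1.42, limma adjusted p = 0.00406), above all NC samples too. Myom1, an M-band protein, rose by 0.68 (adjusted p = 0.00661). Klf6, a zinc finger factor, rose by 0.77 (0.012). Xirp1, an actin-binding protein of muscle, changed by -1.29 (adjusted p = 0.0176), and Mb, the oxygen store myoglobin of oxidative fibres, fell from 4743, 4893 and 5073 TPM in Con to 1701, 2129 and 3577 TPM in Dis (-1.06, adjusted p = 0.0308). Neither passed against NC (-0.26, adjusted p = 0.538 for Xirp1, and -0.60, adjusted p = 0.155 for Mb). In the comparison with Con, Myom1 no longer passed after median-ratio scaling, and Smyd1 did. Mb did not pass without Dis 2, and neither Mb nor Klf6 passed without Con 1. The slow fibre marker sums were 1187, 3780 and 3224 TPM in Dis. Con 1 had a sum of 3125 TPM beside an Mb level of 4743 TPM, so low sums and low Mb were not found in all the same samples. The part of slow fibres in the Mb values was not tested. Con with NC gave 0 calls in each of these lists.

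**Figure D5:**
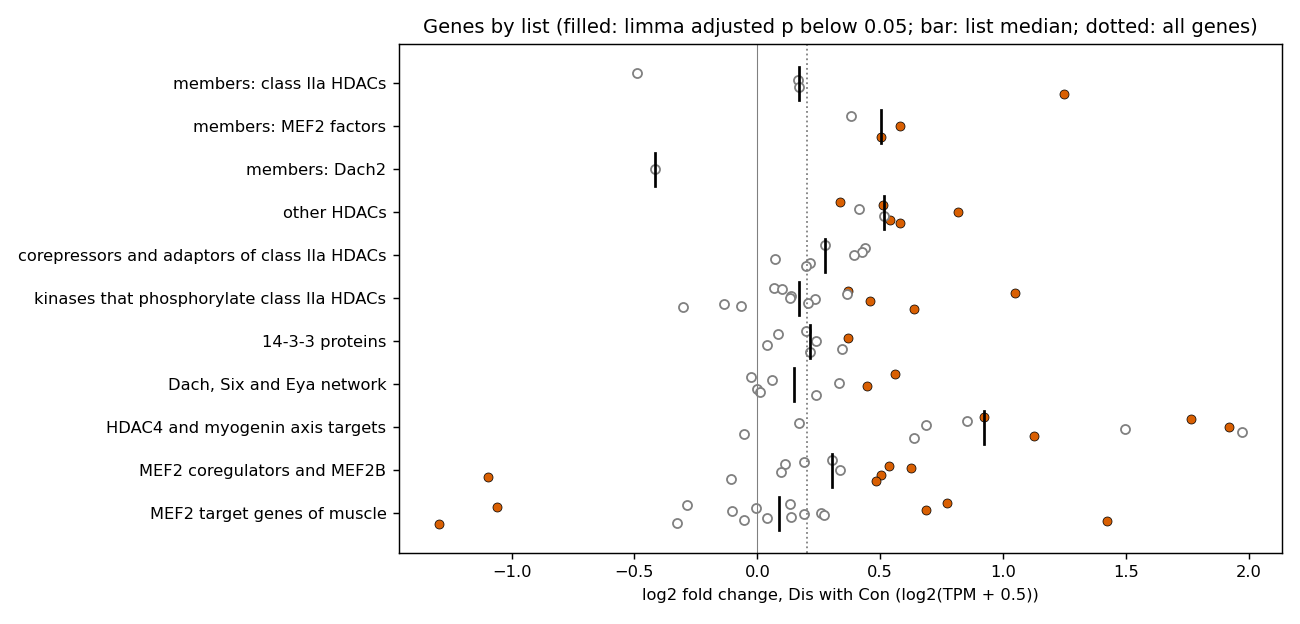
Log2 fold change of Dis with Con in limma (x axis, log2(TPM + 0.5)) for the genes of each list (rows), with filled points for adjusted p below 0.05, bars for list medians and a dotted line for the median of all tested genes, 0.20. Cell type marker lists are not shown. The list of HDAC4 and myogenin axis genes has the highest median of the lists shown, 0.92, and the list of MEF2 targets spreads from -1.29 to 1.42.

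Genes with the profile most like that of a member were taken as those with the smallest root mean square difference of centred log2 values over the 9 samples. For Hdac4 these were Vars (0.143), Psmd2 (0.151), Tpr (0.155), Myh14 (0.169) and Nap1l1 (0.173). Vars encodes valyl-tRNA synthetase, Psmd2 a proteasome subunit, Tpr a nuclear pore protein, Myh14 a nonmuscle myosin and Nap1l1 a histone chaperone. Psmd2 stood at 280.1, 373 and 336 TPM in Dis and at 135 to 161 TPM in the controls, with Dis 2 highest as for Hdac4. For Mef2a they were Ddx3y (0.0589), Rnf141 (0.0623), Lrrc29 (0.0631), 5031434O11Rik (0.0647) and Serac1 (0.0649). Like Mef2a, Ddx3y, an RNA helicase gene, was even across Dis, at 32.4, 31.8 and 32.4 TPM against 20.4 to 25.2 TPM in the controls.

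Compared in the direction of the transcripts, these genes held few stretches also found in other genes. Stretches of 75 bases found also in another gene made up 1.05% of the Mef2a transcript models, 0.365% of those of Hdac5 and 0.163% of those of Hdac4, and 0 in the other 5 genes. None was shared between members. Mef2d overlaps an antisense gene over 531 exon bases, which was read at 0.491 to 0.920 TPM, far under Mef2d. On the opposite strand, Lysmd4 overlaps Mef2a over 302 exon bases, at 6.44 to 8.62 TPM. Slc48a1 overlaps Hdac7 over 29 exon bases, at 35.2 to 63.5 TPM, above Hdac7. The largest overlap was that of Hdac4 with the opposite-strand noncoding gene given above (3536 exon bases). That gene had no TPM value, so its level is unknown and its part in the Hdac4 values was not tested.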

How the data were processed

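RNA of 9 gastrocnemius samples was sequenced, and the deposited tables hold one TPM value per gene and sample, made by the authors. Per the labels and methods, reads were demultiplexed with bcl2fastq 2.20, trimmed, aligned with HISAT2 and quantified with StringTie. The genome build is not given in the sources used here. A value of exactly 0.0001 TPM was taken to stand for no expression and set to 0. The 16140 genes that reached 0.3 TPM in 3 or more samples were fitted on log2(TPM + 0.5) with limma 3.58.1 in R 4.3.3, 3 group means in one fit with a mean trend. P-values were adjusted over all tested genes by Benjamini-Hochberg at 0.05. The method was tested on simulated data. Count models were not used, since TPM is not a count. Shares and ratios were tested with scipy 1.17.1 (Python 3.11.15). The members and lists were chosen with earlier results of these data known. Named list genes were those called in Dis with Con (at most 4, by smallest p) plus Myog, Chrna1, Hdac3, Camk2b, Mef2b and Dach1. Mb, Smyd1, Trim63, Ankra2, Cbx5, Ncor1, Chrnd, Chrng, Ncam1, Runx1, Cdh15 and Pax7 were named after their values had been seen. Most alike genes were named by root mean square difference (5 for each of the 2 members with smallest p). Alternatives were other pseudocounts, filters, scalings and fits, a replicate term and leaving out each sample. For the lists, leaving out Dis 2 or Con 1 and median-ratio scaling were added after seeing the data. A few list genes are not reported here and were left out of the list counts.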

Additional observations from a re-analysis of the deposited data

How the results depend on the processing

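Hdac4 kept its direction and passed under every alternative fit against Con and against NC. Depth limits cannot be stated from TPM, and Dach2, under 1 TPM in all samples, was not tested with a 1 TPM filter. Without one sample, log2 fold changes of Hdac4 ranged from 1.13 to 1.33 against Con and 1.27 to 1.46 against NC. The number of the 8 genes past the threshold ranged from 1 (without Con 1) to 4 against Con, from 2 (without NC 1 or NC 3) to 4 against NC, and was 0 for Con with NC. For all genes it ranged from 701 (without Con 1) to 2908 against Con, from 846 (without NC 1) to 3103 against NC, and from 1 to 8 for Con with NC.

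Against Con, 1 of the 8 passed after median-ratio scaling or quantile normalization. All genes numbered 1184, 1192 and 848 under median-ratio scaling, quantile normalization and a fit to 2 groups, where 2770 passed in the main fit. Against NC, 2 of the 8 passed under quantile normalization and under a fit to 2 groups, and all genes numbered 1457, 1407 and 1230 (2676 in the main fit). Of those called, 2273 were higher and 497 lower against Con on deposited TPM, but 431 and 753 after median-ratio scaling. Con with NC gave 2 with no filter, 7 with 2 groups and 43 with array weights, against 1.

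Hdac5 turned to -0.062 and -0.019 (median-ratio, quantile) against Con, to 0.016 (array weights) against NC, and to -0.16, -0.13 and -0.0047 (median-ratio, quantile, without mitochondrial genes) against both. Hdac7 turned to -0.047 and -0.052 (median-ratio, quantile) against Con, and to -0.213, -0.214, -0.061 and -0.046 (the same 3 and array weights) against both. Without one sample, Hdac5 ran from -0.18 to 0.059 against NC and -0.088 to 0.15 against both, Hdac7 from -0.082 to 0.061 against both, and, for Con with NC, Mef2a from -0.032 to 0.12 and Dach2 from -0.11 to 0.039. The comparison with both control groups was chosen after seeing the data. The cause of these changes was not tested.

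Against Con alone or NC alone the exact permutation test could not go below p = 0.10. The shares of Hdac4, Hdac5 and Hdac9 then differed by 14.4, -9.51 and -2.71 points (adjusted p = 0.20) and by 17.9, -10.3 and -3.64 points (adjusted p = 0.16), the log2 ratio of Hdac4 to Dach2 by 1.66 and 1.84, and the Mef2a share by 0.0868 against Con. Without one sample these ranged from 13.7 to 19.3, -13.5 to -7.17, -3.71 to -2.48 and 1.54 to 1.88, and for Mef2a from -0.741 to 1.09 points.

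Samples with the same replicate number did not deviate together (correlations -0.104 to 0.0691 across genes), so the numbers were not used as pairs. With a replicate block, 2 of the 8 passed against Con and 4 against NC, 2091 and 2182 of all genes did, and 2 for Con with NC. Mef2c was lost against Con (adjusted p = 0.0525). With the block the shares of Hdac4, Hdac5 and Hdac9 differed from Con by 14.4, -9.51 and -2.71 points, the log2 ratio by 1.66 and the Mef2a share by 0.0868 points.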
